A study of Homo sapiens with 2 samples.

Results

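The nuclear genes that transcribe mitochondrial DNA and keep its RNA stable were followed as a set of 10: TFAM, TFB2M, POLRMT, TEFM, POLG, LRPPRC, SLIRP, PNPT1, SUPV3L1 and MTERF3. They were found by gene symbol in the deposited FPKM tables, and all 10 of the set were present among the 61806 genes of the count table. HEL is a human erythroleukemia cell line with erythroid and megakaryocytic features, labelled here as wild type. The cells were treated for 24 h with 0.5% DMSO, the vehicle, or with L1 at 1 µM, a derivative of 3,3′-diindolylmethane, and 1 library was sequenced for each group. With 1 library per group no test between the conditions was possible, and every difference below compares these 2 libraries and has no replicate check.

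Mitochondrial DNA is a small circle that encodes 13 proteins of the respiratory chain. All the enzymes that copy and transcribe it are made from nuclear genes and imported. TFAM packages the DNA and bends the promoter, TFB2M opens it, POLRMT is the RNA polymerase, and TEFM keeps the polymerase elongating. The long transcripts are then cut, and LRPPRC with its partner SLIRP protects the mRNAs, while the exonuclease PNPT1 and the helicase SUPV3L1 degrade RNA as a complex.

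The count table held 32556872 reads on genes for DMSO and 27135647 for L1. The 14 genes fixed as markers of HEL cells, such as GATA1, ITGA2B and FLI1, all had at least 356 counts in each library. Of 16 markers of T cells, B cells, epithelium and fibroblasts, CD3D, CD3E, MS4A1 and EPCAM had 0 counts in both libraries. The highest count among those 16 was 439, for KRT18 in DMSO, and their summed counts were 915 in DMSO and 715 in L1. In a bulk library, fewer cells of a kind and less RNA per cell cannot be told apart.

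The sequences just before the transcription start are shown for the initiation factors TFAM, TFB2M and POLRMT, whose proteins act together at the promoters of mitochondrial DNA, and for LRPPRC and SLIRP, the partners that stood at opposite ends of the set. Each line gives the 250 bases before the start listed by RefSeq (GRCh38.p14), 5′ to 3′ on the strand of the gene. Capitals mark matches, on either strand, to CGCNTGCGC (NRF1, a known activator of mitochondrial genes), CGGAAG (the core bound by ETS factors, to which GABPA and FLI1 belong) or AAGATGG (YY1).
TFAM, chr10:58385160-58385409, plus strand: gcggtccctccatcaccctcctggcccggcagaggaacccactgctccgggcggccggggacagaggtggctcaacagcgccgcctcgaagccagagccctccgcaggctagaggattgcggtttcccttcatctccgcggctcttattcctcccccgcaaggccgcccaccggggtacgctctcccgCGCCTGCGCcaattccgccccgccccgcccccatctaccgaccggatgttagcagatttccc
TFB2M, chr1:246566262-246566511, minus strand: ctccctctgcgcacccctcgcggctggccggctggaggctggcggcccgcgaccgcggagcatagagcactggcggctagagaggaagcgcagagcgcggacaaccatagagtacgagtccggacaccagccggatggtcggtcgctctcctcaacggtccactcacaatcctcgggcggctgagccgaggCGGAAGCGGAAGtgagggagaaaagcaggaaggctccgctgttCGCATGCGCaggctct
POLRMT, chr19:633538-633787, minus strand: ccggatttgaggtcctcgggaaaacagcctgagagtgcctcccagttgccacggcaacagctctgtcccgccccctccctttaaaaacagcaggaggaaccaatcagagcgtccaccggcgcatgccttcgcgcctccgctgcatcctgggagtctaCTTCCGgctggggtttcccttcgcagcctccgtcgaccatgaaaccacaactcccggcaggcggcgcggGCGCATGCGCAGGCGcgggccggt
LRPPRC, chr2:43995990-43996239, minus strand: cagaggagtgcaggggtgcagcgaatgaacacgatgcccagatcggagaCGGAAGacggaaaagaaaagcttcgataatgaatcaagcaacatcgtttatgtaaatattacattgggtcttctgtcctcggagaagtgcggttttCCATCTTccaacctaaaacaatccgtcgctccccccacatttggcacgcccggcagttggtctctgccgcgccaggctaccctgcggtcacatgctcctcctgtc
SLIRP, chr14:77707853-77708102, plus strand: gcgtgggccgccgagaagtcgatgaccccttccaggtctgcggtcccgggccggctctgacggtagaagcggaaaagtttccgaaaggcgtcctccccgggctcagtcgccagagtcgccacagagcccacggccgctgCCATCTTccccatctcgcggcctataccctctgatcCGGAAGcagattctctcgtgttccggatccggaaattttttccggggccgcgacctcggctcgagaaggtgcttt

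These letters were searched for in the 250 bases before the first start listed for 9 of the 10 genes. The NRF1 letters occurred before TFAM, TFB2M and POLRMT, so in 3 of 9 genes, against 6.56% of all 35116 listed promoters. These letters are mostly G and C. G and C made up 69.2%, 67.2% and 65.2% of these 3 windows, against a median of 58.0% over all listed promoters. The windows of TEFM and POLG, without a match, had 68.8% and 64.4%. The share of matches was not compared at equal base composition. In POLRMT the 3 matches overlap one another, and the nearest to the start begins 18 bases before it. In TFAM the match begins 62 bases before the start, and in TFB2M 16 bases before it. These distances are from the RefSeq starts, which do not always match the outermost start of the gene in GENCODE release 29. The RefSeq start of TFAM lies 388 bases downstream of that start, so the TFAM window is inside the gene as placed below. For TFB2M, POLRMT, LRPPRC and SLIRP the first listed start lies 63, 67, 16 and 32 bases downstream. The ETS letters occurred before TFB2M, POLRMT, LRPPRC and SLIRP, so in 4 of 9 genes, against 16.5% of all promoters. The YY1 letters occurred before LRPPRC and SLIRP, so in 2 of 9 genes, against 3.70%. TEFM, POLG, PNPT1 and SUPV3L1 held none of these letters in this window. SLIRP has 2 listed starts, and the window before each held the same 2 kinds of match. A match describes the letters and is not a measured binding site.

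The mRNAs of all 10 factors were detected in both libraries, and the differences between the libraries were small. No member was past 2-fold, against 12.0% of the 18123 genes that reached 10 counts in either library (7.12% higher and 4.83% lower in L1). None was past 1.5-fold, against 25.2% of those genes (13.8% higher and 11.4% lower). These calls, and the list medians below, used ratios damped by a prior count of 2, and the values given for single genes used none. Many of the 18123 genes have few counts. Among the 8828 genes with at least 500 counts in 1 library, which is the range of 9 of the 10 members, 4.54% were past 2-fold (2.20% higher and 2.34% lower) and 12.1% past 1.5-fold (5.46% higher and 6.64% lower). The log2 ratios of L1 over DMSO, scaled by edgeR's TMM method and without a prior count, ran from -0.32 for LRPPRC to 0.32 for SLIRP. Their median was 0.11, against -0.004 over the 18123 genes and -0.031 over the 8828 genes. Log2 ratios were above 0 for 8 of 10 members, against 49.6% of the 18123 and 45.5% of the 8828 genes. They were below 0 for TFAM and LRPPRC, against 50.4% and 54.5%, though TFAM had 0.011 with total counts and SUPV3L1 had -0.023 with DESeq2 size factors.

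The exact 95% interval of a log2 ratio (Clopper-Pearson), which covers counting error only, lay above 0 for TFB2M, POLRMT, TEFM, SLIRP and PNPT1. These are 5 of 10 members, against 26.8% of the 18123 genes and 32.1% of the 8828 genes. The interval lay below 0 for LRPPRC, so for 1 of 10, against 28.6% and 40.0%. It included 0 for TFAM, POLG, SUPV3L1 and MTERF3. With DESeq2 size factors the interval of PNPT1 included 0 (-0.0093 to 0.14), which left 4 of 10 members above 0, against 24.3% of the 18123 and 28.3% of the 8828 genes on that scale. With total counts POLG and MTERF3 were added, giving 7 of 10, against 31.3% and 38.9%. Upper quartile scaling also gave 7 of 10, against 30.4% and 37.4%.

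**Figure D1:**
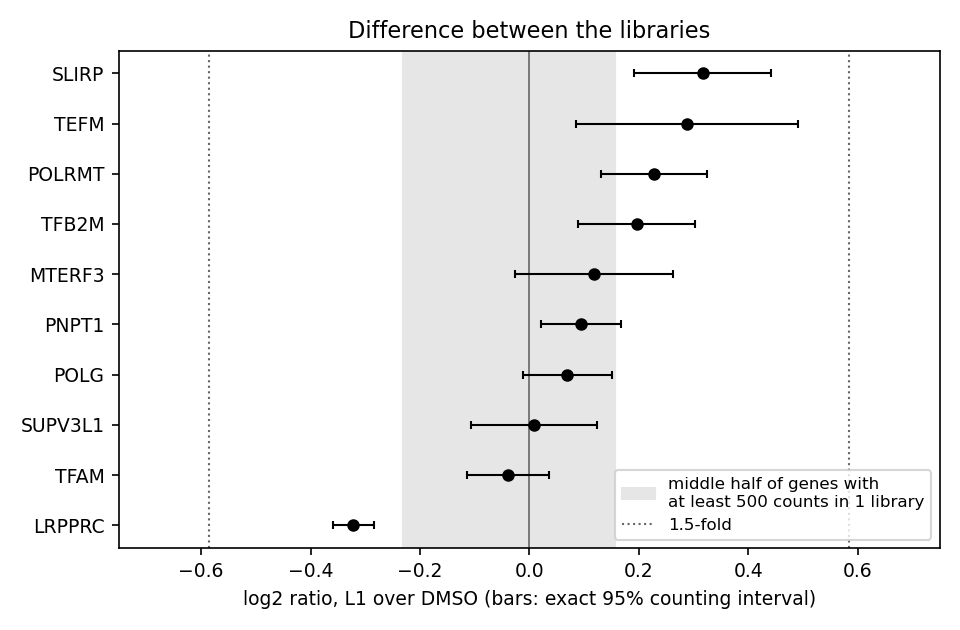
Log2 ratio of L1 over DMSO (x axis) for each of the 10 factors (y axis, ordered by ratio), from 1 library per group; points are TMM-scaled count ratios and bars their exact 95% counting intervals. LRPPRC at -0.32 stands apart at the left, SLIRP at 0.32 is farthest to the right, and no bar reaches the dotted lines at 1.5-fold; the grey band spans the interquartile range of the genes with at least 500 counts in 1 library, from -0.23 to 0.16.

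The core transcription machinery was described first. TFAM (ENSG00000108064, chromosome 10 from 58385022 to 58399221, GENCODE release 29 on GRCh38) had 3125 reads under DMSO and 2624 under L1. Its deposited FPKM, reads per kilobase of gene length scaled to library size, was 18.6 in DMSO and 18.1 in L1. The log2 ratio was -0.039 with an interval from -0.11 to 0.036, so a difference in TFAM mRNA between the libraries was not detectable at this depth.

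TFB2M (ENSG00000162851, chromosome 1 from 246540560 to 246566324) had 1444 reads under DMSO and 1427 under L1, and its FPKM was 25.5 and 29.2. Its log2 ratio was 0.20 (0.089 to 0.30). POLRMT (ENSG00000099821, chromosome 19 from 617224 to 633604) had 1713 reads under DMSO and 1731 under L1, an FPKM of 10.6 and 12.5, and a log2 ratio of 0.23 (0.13 to 0.33). The raw counts of both genes were nearly equal in the libraries, and L1 was higher after the deeper DMSO library was scaled. Of the 31-base words in the transcripts of POLRMT, 35.6% also occur in transcripts of other genes, and the gene that shares the most is its processed pseudogene POLRMTP1. This share was 27.5% for TEFM, 22.8% for SLIRP and 19.6% for PNPT1. For the other members it ran from 1.24% (MTERF3) to 6.51% (POLG). POLRMTP1 itself, chosen after its values were seen, had 190 reads under DMSO and 322 under L1, a log2 ratio of 0.97 (0.71 to 1.24). Summed with this pseudogene, POLRMT had a log2 ratio of 0.32.

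TEFM, the elongation factor (ENSG00000172171, chromosome 17 from 30897336 to 30906820), was the gene with the lowest counts, 393 under DMSO and 414 under L1, and had the lowest FPKM, 4.68 and 5.71. Its log2 ratio of 0.29 had the widest interval, from 0.086 to 0.49. An antisense RNA, AC130324.3, overlaps 542 bases of its exons and had 168 reads under DMSO and 112 under L1. Whether the counting used strand is not given in the sources used here, so reads of the overlap cannot be assigned with certainty. With the genes linked by overlap on either strand summed, the log2 ratio of that locus was 0.12.

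TFB2M, POLRMT and TEFM thus had log2 ratios between 0.20 and 0.29, and neighbours in that order did not differ beyond counting error. The FPKM of TFAM relative to TFB2M was 0.731 in DMSO (95% interval 0.687 to 0.778) and 0.621 in L1 (0.582 to 0.662). This ratio changed by a log2 value of -0.24, with a counting interval from -0.36 to -0.11. The FPKM of POLRMT relative to TEFM was 2.28 in DMSO and 2.18 in L1, a change of -0.060 whose interval from -0.28 to 0.16 included 0.

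MTERF3 and POLG act on the same DNA in other roles. MTERF3, a member of the MTERF family that binds mitochondrial DNA and is known as a negative regulator of its transcription, is ENSG00000156469, on chromosome 8 from 96239398 to 96261610. It had 817 reads under DMSO and 765 under L1, an FPKM of 14.3 and 15.5, and a log2 ratio of 0.12 (-0.026 to 0.26). POLG, the catalytic subunit of the replicative DNA polymerase (ENSG00000140521, chromosome 15 from 89305198 to 89334861), had 2597 reads under DMSO and 2351 under L1. The FPKM of POLG was 10.6 and 11.1, with a log2 ratio of 0.070 (-0.012 to 0.15). For both genes the interval included 0. Exons of POLG overlap 458 bases of FANCI on the opposite strand, and FANCI had 11993 reads under DMSO and 7710 under L1, so reads of the overlap cannot be assigned with certainty. FANCI and POLG summed had a log2 ratio of -0.32, set mostly by FANCI. POLG2, the accessory subunit of the same polymerase, had 719 reads under DMSO and 648 under L1. The FPKM of POLG relative to POLG2 was 2.13 in DMSO and 2.14 in L1, and the log2 change of 0.0064 had an interval from -0.17 to 0.18.

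**Figure D2:**
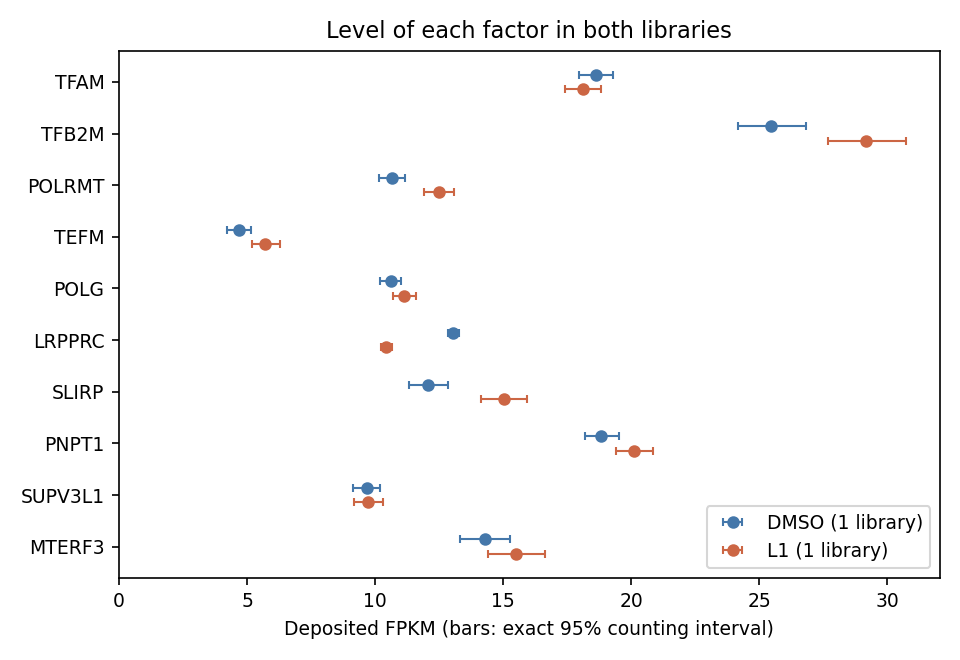
Deposited FPKM (x axis) of each factor (y axis, by role from TFAM at the top to MTERF3 at the bottom) in the DMSO and the L1 library, 1 library each; bars are exact 95% counting intervals. The bars of the libraries do not overlap for TFB2M, POLRMT, TEFM, LRPPRC and SLIRP; LRPPRC, from 13.04 to 10.4, is the only one of these that is lower in L1.

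The clearest contrast in the set was between the partners LRPPRC and SLIRP, which form one complex that binds mitochondrial mRNAs. LRPPRC (ENSG00000138095, chromosome 2 from 43886508 to 43996005) had 14383 reads under DMSO and 9928 under L1, and its FPKM was 13.04 and 10.4. The L1 level was 0.800 times that of DMSO, with a log2 ratio of -0.32 (-0.36 to -0.28). Among the 8828 genes with at least 500 counts, 17.7% had a lower log2 ratio, so a difference of this size was common in these libraries. SLIRP (ENSG00000119705, chromosome 14 from 77708071 to 77761104) had 1009 reads under DMSO and 1084 under L1, and its FPKM was 12.1 and 15.02. The L1 level was 1.25 times that of DMSO, with a log2 ratio of 0.32 (0.19 to 0.44), and 86.6% of the 8828 genes had a lower log2 ratio. Exons of SLIRP overlap 118 bases of SNW1 on the opposite strand. SNW1 had 2348 reads under DMSO and 2333 under L1, and the sum over all overlapping genes of the locus had a log2 ratio of 0.24.

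The FPKM of LRPPRC relative to SLIRP was 1.08 in DMSO (95% interval 1.01 to 1.15) and 0.695 in L1 (0.652 to 0.740). The ratio in L1 was 0.643 times that in DMSO, a log2 change of -0.64 with a counting interval from -0.77 to -0.51. This change does not depend on the scaling of the libraries or on the gene lengths, since both genes were measured in the same libraries. The pair was known to differ from earlier results of these data, so the value is a description.

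Members of the decay machinery came next. PNPT1 and SUPV3L1, the exonuclease and the helicase of the degradation complex, had more even values. PNPT1 (ENSG00000138035, chromosome 2 from 55634265 to 55693910) had 3168 reads under DMSO and 2919 under L1, an FPKM of 18.8 and 20.1, and a log2 ratio of 0.095 (0.022 to 0.17). SUPV3L1 (ENSG00000156502, chromosome 10 from 69180232 to 69209099) had 1316 reads under DMSO and 1142 under L1, an FPKM of 9.67 and 9.73, and a log2 ratio of 0.0085 (-0.11 to 0.12). The FPKM of PNPT1 relative to SUPV3L1 was 1.95 in DMSO and 2.07 in L1, and the log2 change of 0.086 had an interval from -0.049 to 0.22, which included 0.

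**Figure D3:**
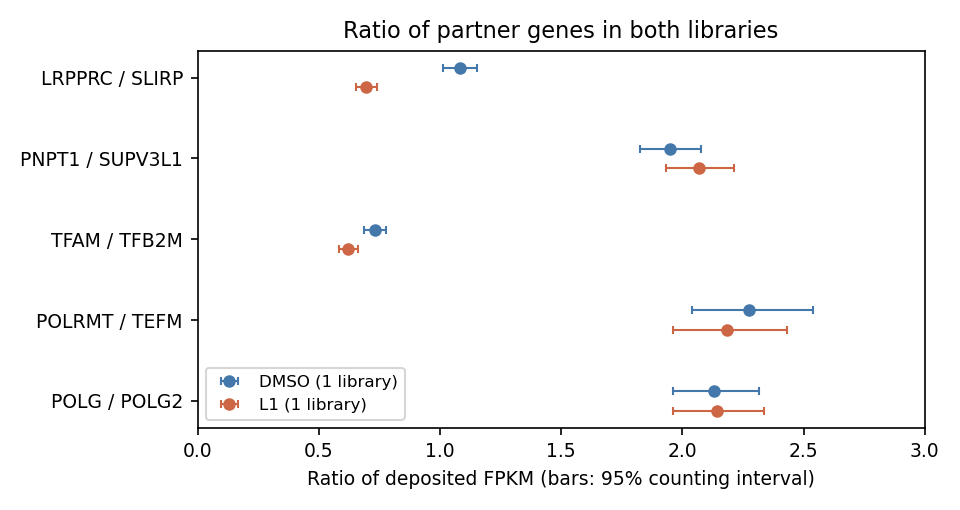
Ratio of deposited FPKM (x axis) for 5 pairs of partner genes (y axis) in the DMSO and the L1 library, 1 library each; bars are 95% counting intervals from the counts of both genes. LRPPRC relative to SLIRP was 1.08 in DMSO and 0.695 in L1 and TFAM relative to TFB2M 0.731 and 0.621, with bars that do not overlap, while the bars of the other 3 pairs overlap.

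In the order of log2 ratios, LRPPRC differed from its neighbour TFAM by 0.28, with a counting interval from 0.20 to 0.37. None of the other 8 pairs of neighbours differed beyond counting error. LRPPRC held 48.0% of the 29965 counts of the set in DMSO. The summed counts of the 10 genes therefore gave a log2 ratio of -0.084, and without LRPPRC they gave 0.10.

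The order of the levels depended on the gene length used. By deposited FPKM, TFB2M had the highest level of the set in DMSO (25.5), followed by PNPT1 (18.8) and TFAM (18.6), and TEFM had the lowest (4.68). The counting intervals of PNPT1 and TFAM overlapped, as did those of LRPPRC and SLIRP, of POLRMT and POLG, and of POLG and SUPV3L1. The median FPKM of the set was 12.6 in DMSO and 13.7 in L1, against 5.19 and 5.11 over the 13924 genes of the FPKM tables. In L1 the first 4 ranks were unchanged, and LRPPRC was at rank 8 in place of rank 5.

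The FPKM values imply a gene length of 34689 bases for LRPPRC, while its merged exons in GENCODE release 29 span 9760 bases and its principal transcript 6335 bases. For SLIRP the implied length was 2631 bases, equal to its merged exons, and the principal transcript has 408 bases. Of the other factors, POLG and TEFM differed most, with implied lengths of 7699 and 2642 bases against merged exons of 5980 and 3224. Of 13734 genes compared, 58.9% had an implied length within 1% of the merged exons. The exon overlaps given above are those of GENCODE release 29, and the gene models used for counting can differ. With the TMM-scaled counts divided by the length of the principal transcript, SLIRP and LRPPRC had the highest levels of the set in DMSO, 77.3 and 70.9 scaled reads per kilobase (CPM per kilobase). The reads were counted over the longer gene models, so reads outside the principal transcript can raise these levels, most where the lengths differ most, as for LRPPRC and SLIRP. The ranking mixes both models. TFB2M followed with 24.4 and PNPT1 with 22.4, and TEFM remained the lowest at 6.49. The spread from the lowest to the highest level in DMSO was 5.44-fold by deposited FPKM and 11.9-fold by principal transcript. On the second scale LRPPRC relative to SLIRP was 0.918 in DMSO and 0.590 in L1. The length does not enter the ratio of L1 over DMSO of a gene, though the gene model decides which reads enter it.

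**Figure D4:**
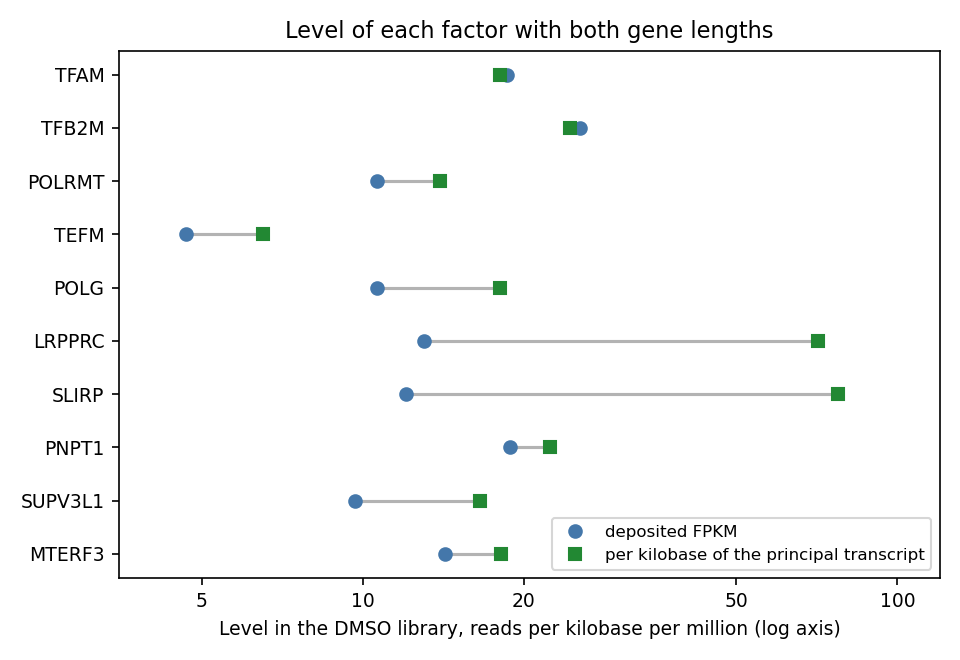
Level of each factor in the DMSO library (x axis, log scale, FPKM or CPM per kilobase) as deposited FPKM and with the counts divided by the principal transcript of GENCODE release 29 (1 library). LRPPRC moves from 13.04 to 70.9 and SLIRP from 12.1 to 77.3, while TFAM and TFB2M stay near their FPKM.

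The other genes of the pathway were taken from lists written from general knowledge. For comparison with the lists below, log2 ratios were above 0 for 49.6% of the 18123 genes and 45.5% of the 8828 genes. Past 2-fold higher were 7.12% and 2.20%, and past 2-fold lower 4.83% and 2.34%. Of 18 genes of mitochondrial DNA replication and the nucleoid, the protein-DNA body that holds the genome, 10 had log2 ratios above 0 and 8 below 0. The median was 0.050. None was past 2-fold, while MGME1 and DGUOK were past 1.5-fold higher and DNA2 past 1.5-fold lower. These were 2 and 1 of 18 genes, against 13.8% and 11.4% of the 18123 genes and 5.46% and 6.64% of the 8828 genes. MGME1, an exonuclease that trims single-stranded mitochondrial DNA, had 759 reads under DMSO and 1157 under L1, a log2 ratio of 0.82 (0.69 to 0.96). DGUOK, which phosphorylates purine deoxynucleosides in mitochondria, went from 1434 to 1975 counts, a log2 ratio of 0.67. DNA2, a nuclease and helicase that also works in the nucleus, had 1938 reads under DMSO and 896 under L1, a log2 ratio of -0.90 (-1.02 to -0.78).

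RRM2B, a subunit of ribonucleotide reductase, had a log2 ratio of 0.44. LIG3, a DNA ligase, had -0.38, and TOP3A, a topoisomerase, had -0.35. Both are also used in the nucleus. Of the proteins of the replication fork, the single-strand binding protein SSBP1 had 0.26 (0.18 to 0.34) and the helicase TWNK had -0.050 (-0.19 to 0.094). POLG2 had 0.063, with an interval that included 0.

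Of 43 genes of mitochondrial RNA processing, modification and decay, 24 had log2 ratios above 0 and 19 below 0, with a median of 0.037. In this list 3 genes were past 1.5-fold higher, against 13.8% of the 18123 genes and 5.46% of the 8828 genes. None was past 1.5-fold lower, against 11.4% and 6.64%. METTL15, a methyltransferase of the small mitochondrial ribosomal RNA, was the 1 gene past 2-fold, with 174 reads under DMSO and 359 under L1, a log2 ratio of 1.26 whose interval from 0.99 to 1.53 included values under 2-fold. MRM2, which methylates the large ribosomal RNA, had 0.63, and the pseudouridine synthase PUS1 had 0.59. At the other end, GTPBP3, which modifies mitochondrial tRNAs, had -0.36, MRPL12 had -0.32 and MTERF1 had -0.28. MRPL12 is a ribosomal protein that also binds POLRMT, and it had 5418 reads under DMSO and 3739 under L1. MTPAP, the poly(A) polymerase of mitochondrial mRNAs, had a log2 ratio of -0.12 (-0.21 to -0.031), and TFB1M, the relative of TFB2M that methylates ribosomal RNA, had 0.053 (-0.16 to 0.26).

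Of 14 regulators of mitochondrial biogenesis, PPARGC1A, the coactivator PGC-1α, had 0 counts in both libraries, and a count of 0 allows up to 3 counts. The other 13 had a median log2 ratio of 0.059, with 7 above 0 and 6 below 0. MYC was past 2-fold higher, from 724 to 1527 counts, a log2 ratio of 1.29 (1.16 to 1.42). NFE2L2 had 0.52, and GABPB2, at 107 and 118 counts, had 0.35 with an interval that included 0. PPARGC1B had -0.43, SP1 had -0.41 and GABPB1 had -0.29. The factors whose letters were searched before the starts, chosen for that reason, had 0.11 for NRF1, 0.059 for GABPA and 0.22 for YY1, and the intervals of NRF1 and GABPA included 0. FLI1, the other ETS factor named with the letters, had -0.13 (-0.17 to -0.099).

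The products of mitochondrial transcription were set beside these factors. All 13 mRNAs of mitochondrial DNA had log2 ratios below 0, with a median of -0.61, and 7 of them were past 1.5-fold lower, against 11.4% of the 18123 genes and 6.64% of the 8828 genes. MT-ATP8, a subunit of ATP synthase, was the 1 mRNA past 2-fold lower, with a log2 ratio of -1.11, against 4.83% and 2.34% of those genes. The mRNAs together took 9.06% of the counts in DMSO and 6.18% in L1. The other products of the same DNA had higher values in L1. The 2 ribosomal RNAs and 22 tRNAs took 1.30% of the counts under DMSO and 1.73% under L1, and their sum had a log2 ratio of 0.37 (0.36 to 0.37). Of the 470002 counts of this sum in L1, 459867 were of the ribosomal RNAs. The tRNAs alone had 0.29 (0.25 to 0.33), at 0.030% of the counts under DMSO and 0.037% under L1. The study's methods do not name how RNA was selected for the libraries, and counts of ribosomal RNAs and tRNAs can depend on that step. MT-RNR1, the small ribosomal RNA, had 0.91 (0.89 to 0.92), and MT-RNR2, the large one, had 0.27 (0.27 to 0.28). On the same scale the factors of initiation and elongation lay between -0.039 for TFAM and 0.29 for TEFM. Of the factors of RNA stability and decay, LRPPRC had -0.32, SUPV3L1 0.0085, PNPT1 0.095 and SLIRP 0.32. A role of any of these factors in the counts of mitochondrial RNA was not tested.

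**Figure D5:**
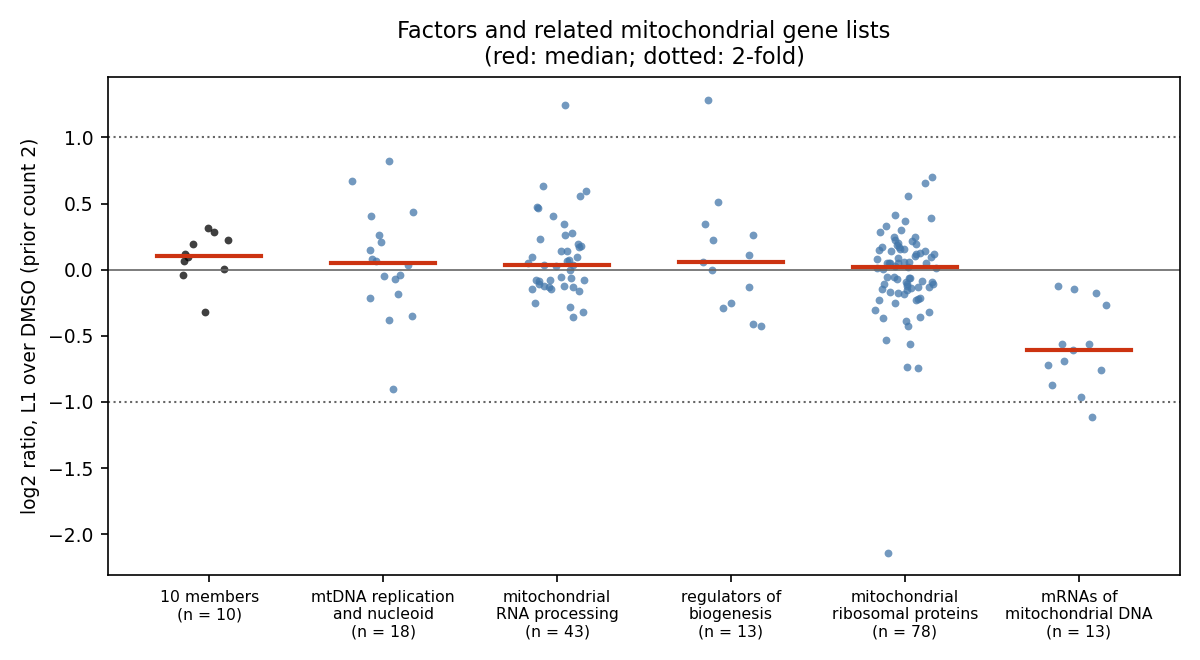
Log2 ratio of L1 over DMSO with a prior count of 2 (y axis) for the 10 factors and 5 lists of related genes (x axis); each point is a gene with at least 10 counts in 1 library, red lines are medians and dotted lines 2-fold. The medians of the factors (0.11) and of the 4 lists of nuclear genes lie near 0, while all 13 mRNAs of mitochondrial DNA lie below 0, with a median of -0.61.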

How the data were processed

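HEL cells with DMSO or L1 gave 1 library per group. By the study's methods, clean reads were aligned with HISAT2 2.1.0. The submitters' processing notes also name hg38, fastp and StringTie, without a role. The authors deposited raw read counts per Ensembl gene, and FPKM values for 13924 genes. The program and annotation used for counting, and any use of strand, are not given in the sources used here. The ratios of L1 over DMSO in the FPKM values of the 10 genes were equal to those of the TMM-scaled counts.

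Counts were scaled with TMM (edgeR 4.0.16). The 95% counting intervals, computed with scipy 1.17.1, are exact for ratios (Clopper-Pearson) and levels (Poisson). For ratios of 2 genes they use a normal approximation on the log scale. They were tried on simulated counts that held counting error alone, which cannot test variation between replicates. The intervals cover counting error only, and PCR copies are not independent molecules. Genes with at least 10 counts in 1 library were kept.

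Positions, lengths, overlaps and shared 31-base words came from GENCODE release 29, which holds 58254 of the 61806 identifiers. Lengths behind FPKM were derived from the total that the 13 mitochondrial mRNAs share. Promoters came from RefSeq. Named list genes are the 3 highest and 3 lowest of each list with at least 100 counts, plus fixed partners. Members, lists and searched letters were chosen with earlier results of these data known. Alternatives were other scalings, FPKM, prior counts, filters, a 1.5-fold threshold and summed overlapping genes.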

Additional observations from a re-analysis of the deposited data

How the results depend on the processing

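No paired analysis was possible because each group has 1 library. Over other scalings, the median log2 ratio of the 10 factors stayed between 0.075 and 0.16. No factor was past 2-fold under any of them, with deposited FPKM, with prior counts of 0.5 and 5, or at a 1.5-fold threshold. Deposited FPKM has the same ratios as the TMM-scaled counts, so it is not a separate check. Of 40 values of single factors under 4 other scalings, 38 stayed within the counting interval. LRPPRC moved to -0.27 with total counts and to -0.28 with upper quartile scaling. Each scaling shifts all 10 log2 ratios by the same amount, so leaving the interval depends on its width. LRPPRC, with the most counts, had the narrowest interval and was not shifted more than the others. TMM without the mitochondrial genes hardly differed from TMM (LRPPRC -0.3215 and -0.3217). POLG moved to -0.32 when summed with FANCI, whose counts exceed its own. That sum, TMM without the mitochondrial genes, other scalings of the interval counts and levels per principal transcript were added after seeing the data.

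The median of the mitochondrial mRNAs was -0.56 with total counts, -0.64 with DESeq2 size factors and -0.57 with upper quartile scaling. With total counts and with upper quartile scaling this median was short of 1.5-fold, so fewer than 7 of the 13 mRNAs were past 1.5-fold lower. Over these scalings the other list medians stayed between -0.013 and 0.11. The genes past 2-fold, 1290 higher and 876 lower, became 3544 and 1811 with no filter, 694 and 491 where both libraries had to reach 10 counts, 688 and 502 among protein-coding genes, and 2506 and 2065 at 1.5-fold. Fewer or more genes enter under each filter. With 393 and 414 counts, TEFM was the factor most limited by depth.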

Other observations

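The 78 mitochondrial ribosomal protein genes, whose products translate the mitochondrial mRNAs, had a median log2 ratio of 0.018, which became -0.013 with DESeq2 size factors, with 42 genes above 0 and 36 below 0. Log2 ratios were above 0 for 49.6% of the 18123 genes and 45.5% of the 8828 genes. MRPL42 was the 1 gene of this list past 2-fold, lower in L1, against 4.83% and 2.34% of those genes. It was chosen after its values were seen. It had 4170 reads under DMSO and 815 under L1, a log2 ratio of -2.14 (-2.25 to -2.03). MRPS34 had -0.75 and MRPS27 had -0.73, and at the other end MRPS16 had 0.70 and MRPL49 had 0.66, also chosen after their values were seen.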
